A study of Mus musculus with 9 samples.

Results

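Slc26a7, Plxdc2 and Chodl are the given markers of a set of 96 genes that read higher on a feeder layer carrying the Notch ligand Delta-like 1 and were still higher than on the control feeder when Notch cleavage was inhibited. The set was taken from 18193 genes measured on 9 arrays, with the brightest probe set on average standing for each gene. A member had an OP9-DL1 mean at least 1 above the OP9-GFP mean on the log2 scale, a Compound E mean at least 0.5 above the OP9-GFP mean, and an OP9-DL1 mean above 5. Symbols starting with Gzm, Stfa or Col and a digit, and Dntt, were left out by the same rule. The thresholds were met by 104 genes, 0.572% of those measured, of which 8 were left out by symbol. Membership was thus set by the measured values, and both differences from OP9-GFP are given below as a description.

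The starting cells were bone marrow LSK cells (Lin-, Sca-1+, c-Kit+, a fraction rich in blood stem cells and early progenitors) of wild-type C57/Bl6 mice. They were grown for 3 days on OP9 stroma in 3 groups of 3 arrays: on OP9-GFP, on OP9-DL1, or on OP9-DL1 with the gamma-secretase inhibitor Compound E at 1 µM. Non-adherent cells were collected, so OP9 cells that detached could be among them, and 25 ng of RNA per condition was amplified. The 2 feeders are separate lines and no group combined OP9-GFP with Compound E, so feeder line and ligand cannot be told apart, nor can an action of the inhibitor outside Notch. The labels do not say whether replicates were separate cultures or animals, so p-values measure only how these samples vary, and that spread may be technical. In bulk RNA, fewer cells of a type and less RNA per cell cannot be told apart.

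Notch receptors are cut by gamma-secretase after they bind a ligand on a neighbouring cell, and the freed intracellular part joins the DNA-binding protein RBPJ to switch on target genes. Delta-like 1 on OP9 cells is widely used to drive blood progenitors towards the T lineage, and gamma-secretase inhibitors such as Compound E block that signal. OP9 cells are mesenchymal and make matrix proteins, adhesion molecules and growth factors of their own.

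All values are deposited log2 values, compared for 1 probe set across arrays and never between genes. The 9 array medians lay between 4.78 and 4.94, and arrays of a group correlated at r = 0.9952 to 0.9977 over all probe sets. The 27 control probe sets made for bacterial RNA read 2.24 to 3.64, and means up to 3.64 are called background. On OP9-GFP 12 members were at background: Slc26a7, Ptchd4, Ms4a4d, Esm1, Cxadr, Tnfrsf11b, Inhbb, Ear3, Crygs, Slc1a6, Panct2 and Fmo1. Where a fold or difference of these from OP9-GFP is given as "at least", each OP9-GFP array was set to the higher of 3.64 and its own value. Nrarp, a direct Notch target, averaged 6.61 on OP9-GFP against 9.30 on OP9-DL1 and 5.02 under Compound E. Of 13 Notch targets, which include none of the 96 genes, 8 rose and 1 fell on OP9-DL1, and 3 were at background in every group. With Compound E none was higher than on OP9-GFP and 2 were lower. Against OP9-DL1, 9 were lower with Compound E and 1 was higher.

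Slc26a7, an anion transporter, had the largest difference of deposited values from OP9-GFP with and without the inhibitor. It read 3.41, 3.39 and 3.69 on the OP9-GFP arrays, 9.20, 9.13 and 9.01 on OP9-DL1, and 7.19, 7.10 and 6.94 with Compound E. No group overlapped another, and the OP9-GFP group was at background. The OP9-DL1 mean was at least 43.8-fold and the Compound E mean at least 10.7-fold above OP9-GFP, and Compound E lowered it 4.10-fold (log2 -2.03, SE 0.12, limma adjusted p = 4.7e-10).

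Plxdc2, a plexin-domain membrane protein, kept more of its difference. Its values were 4.85, 5.21 and 5.05 on OP9-GFP, 8.33, 8.11 and 8.33 on OP9-DL1, and 7.54, 7.93 and 7.64 with Compound E. All Compound E arrays lay below all OP9-DL1 arrays, but by little: Compound E lowered it by 1.46-fold (log2 -0.55, SE 0.12, limma adjusted p = 0.00166). Chodl, chondrolectin, a membrane protein with a lectin domain, kept less. It read 4.10, 3.86 and 3.66 on OP9-GFP, 8.30, 8.17 and 8.21 on OP9-DL1, and 5.73, 5.68 and 5.68 with Compound E. The Compound E arrays sat between the other groups without overlap, 5.78-fold below OP9-DL1 (log2 -2.53, SE 0.13, limma adjusted p = 8.1e-11) and 3.53-fold above OP9-GFP.

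**Figure D1:**
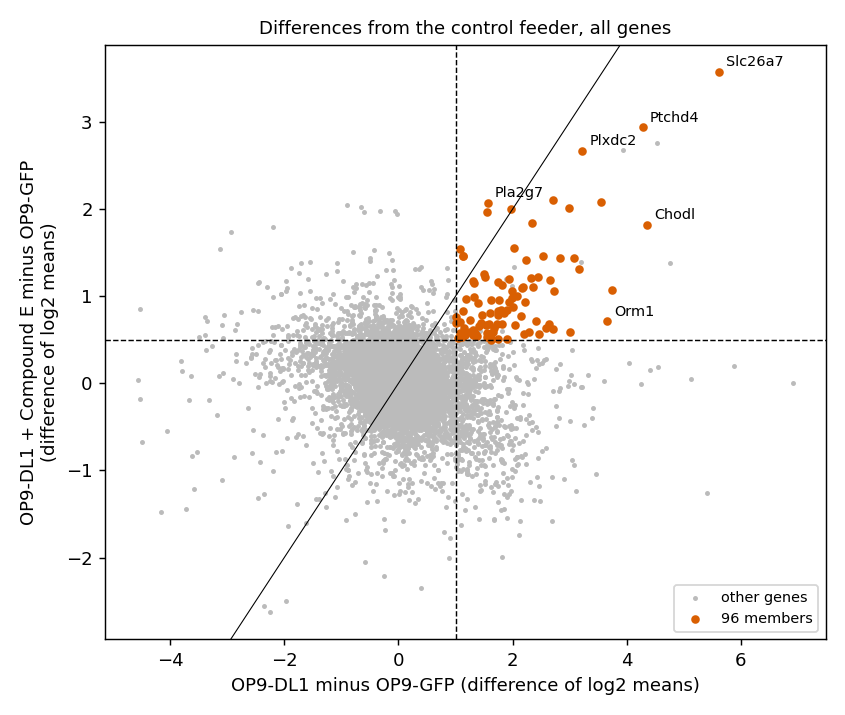
Each point is 1 of 18193 genes, with the OP9-DL1 minus OP9-GFP difference of log2 means on the horizontal axis and the Compound E minus OP9-GFP difference on the vertical axis. Dashed lines mark the thresholds of 1 and 0.5, the solid line marks equal differences, and the 96 members are orange; grey points inside the corner are the 8 genes left out by symbol or genes with an OP9-DL1 mean of 5 or less. Most members lie below the solid line, and 6 lie above it.

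Promoter sequence was searched for the 62 members that have an entry in the RefSeq promoter table (build GRCm38.p6), in 76 windows of the 250 bases before an annotated start. Both strands were searched for TGGGAA, the core read by RBPJ, for GGAATG, read by TEAD factors of the Hippo pathway, and for TTGCNNAA, read by C/EBP factors of the myeloid lineage, where N is any base. The last letters of TGGGAA can be the first of GGAATG, so 1 stretch can match both. TGGGAA was present in 21 of the 76 windows (27.6%), against 21.6% of all 32851 windows of the table and 25.2% of 611 windows of genes raised likewise on OP9-DL1 whose Compound E minus OP9-GFP difference was under 0.5. GGAATG was present in 16 windows (21.1%), against 12.6% of all windows and 15.7% of those 611. TTGCNNAA was present in 12 (15.8%), against 9.56% and 7.53%. These shares were not tested, and a match is a stretch of letters and not a measured binding site.

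Below are the windows of Chodl, of the stromal receptor gene Pdgfra and of 3 neutrophil granule genes, chosen because the results turn on these members and they have entries. Matches are in capitals and each window is written 5′ to 3′ on the gene's own strand. Chodl (chr16:78930698-78930947, plus strand) holds TGGGAA at position -194 from the gene start. Pdgfra (chr5:75152001-75152250, plus strand) holds TTGCNNAA at -118, Ltf (chr9:111019042-111019291, plus strand) holds it on the opposite strand at -75, and Lcn2 (chr2:32387740-32387989, minus strand) holds it at -216. The Camp window (chr9:109849457-109849706, minus strand) holds none of the 3 motifs.
Chodl: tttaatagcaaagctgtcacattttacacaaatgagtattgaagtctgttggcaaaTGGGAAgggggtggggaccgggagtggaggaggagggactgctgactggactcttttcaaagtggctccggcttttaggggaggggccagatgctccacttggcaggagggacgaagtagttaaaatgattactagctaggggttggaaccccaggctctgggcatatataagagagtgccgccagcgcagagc
Pdgfra: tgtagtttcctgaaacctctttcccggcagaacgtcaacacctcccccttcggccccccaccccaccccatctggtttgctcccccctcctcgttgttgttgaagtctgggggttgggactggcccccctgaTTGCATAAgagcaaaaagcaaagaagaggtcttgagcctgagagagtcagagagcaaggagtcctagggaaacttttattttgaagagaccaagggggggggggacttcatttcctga
Ltf: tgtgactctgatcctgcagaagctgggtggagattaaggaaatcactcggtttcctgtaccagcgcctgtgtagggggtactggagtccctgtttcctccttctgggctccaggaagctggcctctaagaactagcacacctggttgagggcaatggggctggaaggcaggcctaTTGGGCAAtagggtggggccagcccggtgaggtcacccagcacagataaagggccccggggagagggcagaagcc
Lcn2: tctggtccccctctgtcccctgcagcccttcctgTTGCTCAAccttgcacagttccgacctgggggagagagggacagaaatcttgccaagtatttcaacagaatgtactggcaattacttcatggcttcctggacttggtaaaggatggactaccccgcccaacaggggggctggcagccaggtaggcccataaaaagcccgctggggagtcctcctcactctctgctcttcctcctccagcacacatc
Camp: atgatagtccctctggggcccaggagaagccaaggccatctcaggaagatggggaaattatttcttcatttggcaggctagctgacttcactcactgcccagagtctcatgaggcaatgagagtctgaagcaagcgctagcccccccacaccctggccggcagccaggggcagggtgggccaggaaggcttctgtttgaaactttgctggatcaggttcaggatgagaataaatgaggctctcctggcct

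Over the whole set, all 96 members were called higher in OP9-DL1 minus OP9-GFP (limma adjusted p under 0.05), where 15.9% of all genes were, and 93 in Compound E minus OP9-GFP, where 12.1% were. The rule used both contrasts, so nothing is read from these counts. The 3 members not called in the second were Rgs20, Fmo1 and Pkia. Every OP9-DL1 array was above every OP9-GFP array for 96 members (20.8% of all genes), and every Compound E array was above every OP9-GFP array for 94 (19.8% of all genes), the exceptions being Adm and Fmo1. The median differences were 1.76 and 0.83, against -0.02 and 0.05 over all genes. The 3 members nearest the lower threshold were Pkia, Fmo1 and Panct2, at 0.50, 0.51 and 0.51 (Fmo1 and Panct2 against OP9-GFP values at background). With OP9-GFP arrays set to background as above, Fmo1 was at least 0.14 and Panct2 at least 0.45 higher, both bounds under the threshold. The 3 genes just outside were Lef1, Dnah2 and Cpe, at 0.50 (before rounding just under the threshold), 0.49 and 0.48.

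The comparison of OP9-DL1 with and without Compound E shows what the inhibitor did to the members. It was not itself in the rule, but both its group means were, so the counts describe the set. Of the 96 members 81 fell with Compound E, where 21.6% of all genes were called lower, 5 rose, where 25.1% were called higher, and 10 were not called. In either direction 46.7% of all genes were called. Without overlap between groups, 83 members were lower (23.2% of all genes) and 5 higher (29.3%). The median difference was -0.92 over the members and 0.08 over all genes, and 43 members fell by at least 1. With arrays centred on their medians, every Compound E minus OP9-DL1 difference shifted by 0.13, 78 members were lower and 5 higher, and the share of higher among all called genes went from 53.8% to 73.7%. In Compound E minus OP9-GFP that share went from 53.4% to 78.2% and 95 members were called higher.

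The Compound E minus OP9-GFP difference as a share of the OP9-DL1 minus OP9-GFP difference, both on the log2 scale and both resting on the same OP9-GFP arrays, ran from 19.5% (Orm1) to 142% (Mapk13) with a median of 48.1%. It was at least 50% for 42 members and above the whole OP9-DL1 difference for 6. For the 12 members at background on OP9-GFP, such as Cxadr at 52.3%, both differences rest on OP9-GFP values at background. On the deposited values 37 members stayed at least 1 above OP9-GFP with the inhibitor. Of these, Cxadr and Tnfrsf11b were at background on OP9-GFP. With OP9-GFP arrays set to background as above, they were at least 0.59 and 0.87 higher, bounds under 1. The other 596 genes raised likewise on OP9-DL1 were under 0.5 with Compound E. Their median Compound E minus OP9-DL1 difference was -1.72 and their median Compound E minus OP9-GFP difference -0.28, with 274 called lower, 42 higher and 280 not called. The thresholds that divide these genes from the members fix a fall with Compound E for every one of them, so neither difference is a finding.

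**Figure D2:**
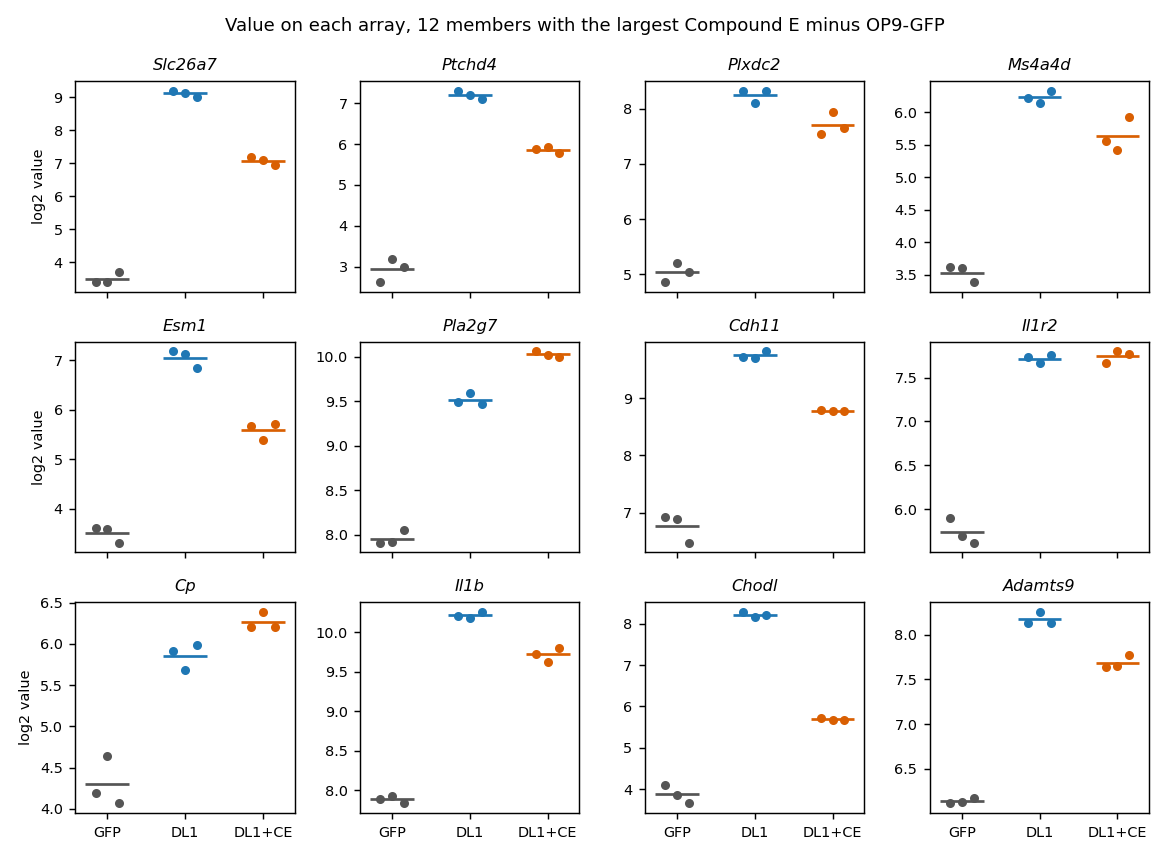
Log2 values on each of the 3 arrays per group (points) and the group mean (bar) for the 12 members with the largest Compound E minus OP9-GFP difference. In all 12 the Compound E arrays lie above the OP9-GFP arrays; in Il1r2 they overlap the OP9-DL1 arrays, and in Pla2g7 and Cp they lie above them.

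Counts by role are to be read beside the 81 of 96 members and 21.6% of all genes called lower with Compound E. The roles were drawn up with earlier results known. The transporters and channels were 6 members. Besides Slc26a7, Abcb1a, the P-glycoprotein drug efflux pump, read 5.20, 5.57 and 5.82 on OP9-GFP, 8.68, 8.49 and 8.89 on OP9-DL1, and 6.98, 6.96 and 6.59 with Compound E. The 3 groups did not overlap, and Compound E lowered it 3.58-fold (limma adjusted p = 5e-08). Abca13, another ABC transporter, averaged 1.32 above OP9-GFP on OP9-DL1 and 1.15 above it with Compound E, and the inhibitor difference of -0.16 (SE 0.11) did not pass the test (limma adjusted p = 0.217). Its other probe set did pass, and fell by 0.35 with Compound E (limma adjusted p = 0.0258). The glutamate transporter Slc1a6, the cystine transporter Slc7a11 and the connexin Gjc1 fell with the inhibitor. They stayed at least 0.50 (Slc1a6, at background on OP9-GFP), 0.56 and 0.52 above OP9-GFP. Members named in this and the following paragraphs outside the naming rule were chosen after their values were seen.

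Adhesion and guidance molecules were 11 members, and all 11 fell with Compound E, as did 81 of the 96 members and 21.6% of all genes. Their median fall was -1.06, against -0.92 over all members, while their median difference from OP9-GFP remained 1.13. Cdh11, a cadherin of mesenchymal cells, read 6.93, 6.89 and 6.48 on OP9-GFP, 9.72, 9.70 and 9.82 on OP9-DL1, and 8.80, 8.77 and 8.77 with Compound E. The groups did not overlap, and the Compound E mean was 4.04-fold above OP9-GFP. The neural cadherin gene Cdh2 behaved otherwise: it read 3.46, 3.42 and 4.12, then 6.44, 6.21 and 6.13, then 4.50, 4.18 and 4.21 in the same order of groups, so its Compound E arrays lay close above OP9-GFP. The tight-junction protein Cxadr, at background on OP9-GFP, stayed at least 0.59 above it with Compound E, and Jam2, of the same kind, 1.09. Of an ephrin ligand and an Eph receptor, which signal between touching cells, Efna5 stayed 1.13 and Epha4 0.56 above. The secreted guidance cue Sema3a stayed 1.11 above and the membrane proteins Elfn1 and Igsf3 1.20 and 0.58.

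Receptors and other membrane proteins were 8. Ptchd4, a patched-domain membrane protein, read 2.61, 3.19 and 2.98 on OP9-GFP, which is background, 7.31, 7.21 and 7.10 on OP9-DL1, and 5.87, 5.94 and 5.78 with Compound E. The groups were far apart, with Compound E at least 4.67-fold above OP9-GFP and 2.53-fold below OP9-DL1. Il1r2, the decoy receptor that binds interleukin 1 without signalling, read 5.91, 5.69 and 5.62 on OP9-GFP, 7.73, 7.67 and 7.75 on OP9-DL1, and 7.66, 7.80 and 7.77 with Compound E. Its OP9-DL1 and Compound E arrays overlapped, and the difference of 0.03 (SE 0.10, limma adjusted p = 0.833) was the smallest in size among the members. The signalling receptor Il1r1 did change: it averaged 8.66 on OP9-GFP, 10.33 on OP9-DL1 and 9.29 under Compound E, and fell by 1.04 with the inhibitor.

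Among the other receptors, Pdgfra, the platelet-derived growth factor receptor of mesenchymal cells, read 7.76, 7.88 and 8.07 on OP9-GFP, 9.56, 9.40 and 9.32 on OP9-DL1, and 8.63, 8.55 and 8.55 with Compound E, with no overlap. The serotonin receptor Htr7 was 1 of the 5 members that rose with Compound E, by 0.33 (SE 0.12, limma adjusted p = 0.0391). That call was lost with its probe sets averaged (0.17, limma adjusted p = 0.193). The other probe set of Htr7 was at background in every group, so averaging shrinks the difference. The call was also lost without OP9-GFP replicate 1, OP9-DL1 replicate 1 or 3, or any 1 Compound E replicate. The limma adjusted p then ran from 0.0510 to 0.135. The parathyroid hormone receptor Pth1r was not called in that comparison (-0.22, SE 0.15, limma adjusted p = 0.232). The orphan receptor Gpr176 and the neural membrane protein Gpm6b fell by 1.06 and 1.13.

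Secreted factors and their antagonists were 13 members, all of which fell with Compound E, as did 81 of the 96 members and 21.6% of all genes. Their median was -0.82, against -0.92 over all members. Tnfrsf11b, osteoprotegerin, which blocks the osteoclast factor RANKL, read 3.37, 3.30 and 4.09 on OP9-GFP, 7.26, 7.51 and 7.20 on OP9-DL1, and 4.99, 4.17 and 4.84 with Compound E. Its Compound E arrays were 6.33-fold below OP9-DL1 and only just above OP9-GFP, whose mean was at background. The imprinted growth factor Igf2 was the member of this role that fell least, by 0.29: it averaged 7.57 on OP9-GFP, 9.08 on OP9-DL1 and 8.79 under Compound E. Stc1, a secreted calcium regulator, was the member furthest above OP9-GFP with Compound E in this role, at 1.42.

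Several of these factors act in Wnt or activin signalling. The Wnt amplifier Rspo3 and the Wnt antagonists Sfrp2 and Apcdd1 stayed 0.93, 0.68 and 0.70 above OP9-GFP. The activin subunit Inhbb, at background on OP9-GFP, stayed at least 0.70 above and the activin antagonist Fst 0.67. Gas6, the ligand of the TAM receptors, averaged 9.24 on OP9-GFP, 10.49 on OP9-DL1 and 9.97 under Compound E. Adm, the vasodilator adrenomedullin, read 7.70, 7.18 and 7.03 on OP9-GFP and 8.15, 8.21 and 7.69 with Compound E, and those 2 groups overlapped. The cytokine Clcf1 and the kinin precursor Kng1 fell by 0.54 and 1.00.

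Matrix proteins, proteases and their inhibitors were 11, of which 10 fell with Compound E and Srpx2 was not called (-0.30, limma adjusted p = 0.0933). Esm1, the secreted proteoglycan endocan, read 3.61, 3.60 and 3.32 on OP9-GFP, 7.18, 7.11 and 6.85 on OP9-DL1, and 5.67, 5.38 and 5.72 with Compound E. It went from background on OP9-GFP to values that did not overlap in any pair of groups. The metalloproteases Adamts9 and Adamts5 differed in what remained: with Compound E Adamts9 was 1.55 above OP9-GFP and 0.48 below OP9-DL1, and Adamts5 0.59 above and 1.69 below. When all probe sets of a gene were averaged, the Compound E minus OP9-DL1 difference of Adamts9 was -0.12 and did not pass the test (limma adjusted p = 0.257). The other probe sets of Adamts9 were at background in every group, so averaging shrinks the difference. The pattern-recognition protein Ptx3 fell by 1.96, the elastic fibre protein Fbln5 by 1.08, the basement membrane protein Nid2 by 0.97 and the heparan sulphatase Sulf1 by 0.81.

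Neutrophil and inflammatory genes were the largest role by count, with 16 members. With Compound E 10 of them stayed at least 1 above OP9-GFP, against 37 of all 96 members, both counted on the deposited values. Il1b, interleukin 1 beta, read 7.88, 7.92 and 7.83 on OP9-GFP, 10.21, 10.18 and 10.26 on OP9-DL1, and 9.73, 9.63 and 9.80 with Compound E. The groups did not overlap, and the Compound E mean was 3.57-fold above OP9-GFP and 1.41-fold below OP9-DL1 (limma adjusted p = 4.9e-06). Ms4a4d, a member of the MS4A family of membrane proteins, was at background on OP9-GFP and at least 3.99-fold higher with Compound E. Orm1, an acute-phase glycoprotein with close paralogs, was at the other end: it fell by 2.94 with Compound E, the largest fall of the set, and stayed 0.71 above OP9-GFP.

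The secondary granule genes Ltf (lactoferrin), Camp (cathelicidin) and Lcn2 (lipocalin 2), whose promoter windows are printed above, were highest on OP9-DL1. Ltf read 8.20, 8.33 and 7.96 on OP9-GFP, 11.02, 10.89 and 11.08 on OP9-DL1, and 9.68, 9.69 and 9.43 with Compound E. Camp read 8.53, 8.68 and 8.38, then 10.98, 10.90 and 11.07, then 9.70, 9.88 and 9.68. Lcn2 read 10.21, 10.24 and 10.17, then 11.94, 11.91 and 11.99, then 11.32, 11.41 and 11.39. In all 3 the Compound E arrays fell between the other groups with no overlap, by 1.40, 1.23 and 0.58 below OP9-DL1.

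Other granulocyte genes did not all follow. Of 13 measured genes of a granulocyte list, 3 of which are members, 6 were higher and 6 lower on OP9-DL1 than on OP9-GFP, and 8 were higher and 4 lower with Compound E than on OP9-GFP. Ngp, a further secondary granule gene, was 1.50 and 0.42 above OP9-GFP in the same order. Mmp8, a collagenase of the same granules, went the other way: it averaged 10.30 on OP9-GFP, 5.78 on OP9-DL1 and 11.16 under Compound E, so the inhibitor raised it by 5.38 (limma adjusted p = 2.9e-15). The primary granule genes Elane, Mpo, Prtn3 and Ctsg were lower in both, at -0.53, -0.19, -0.52 and -0.60 on OP9-DL1 and -0.31, -0.17, -0.23 and -0.21 with Compound E. With arrays centred on their medians 9 of the 13 were higher and 2 lower in the second comparison. Lists of other blood cell types also shifted. Of 16 macrophage and dendritic genes 13 were lower on OP9-DL1 than on OP9-GFP (median -1.42) and 11 rose with Compound E (1.40). Of 10 erythroid, 12 mast and basophil and 10 stem cell genes, 7, 8 and 8 were higher on OP9-DL1 and 7, 9 and 9 fell with Compound E. The part of cell makeup in the members' values was not tested.

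Only 5 members rose with Compound E, and 2 of them are in the neutrophil and inflammatory role. Pla2g7, the enzyme that breaks down platelet-activating factor, read 7.91, 7.91 and 8.05 on OP9-GFP, 9.49, 9.59 and 9.47 on OP9-DL1, and 10.07, 10.02 and 9.99 with Compound E. Every Compound E array was above every OP9-DL1 array, by 0.51 on average (SE 0.06, limma adjusted p = 5e-06). Klra17, of the Ly49 lectin receptor family, whose members are alike in sequence, rose by 0.33 (limma adjusted p = 0.00815).

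Outside that role, the stress kinase gene Mapk13 read 6.19, 6.19 and 6.06 on OP9-GFP, 7.13, 7.12 and 7.45 on OP9-DL1, and 7.66, 7.72 and 7.68 with Compound E, a rise of 0.45 (SE 0.11, limma adjusted p = 0.00238). Cp, ceruloplasmin, an iron-oxidising copper protein, rose by 0.41 (SE 0.16, limma adjusted p = 0.0418). That call was lost when OP9-DL1 replicate 1 or 2 or any 1 Compound E replicate was left out, and with the mean of its probe sets the difference was -0.01 (limma adjusted p = 0.942). The other 3 kept their call in each of these. The count of 5 became 3 without OP9-DL1 replicate 1 or without any 1 of the Compound E replicates.

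**Figure D3:**
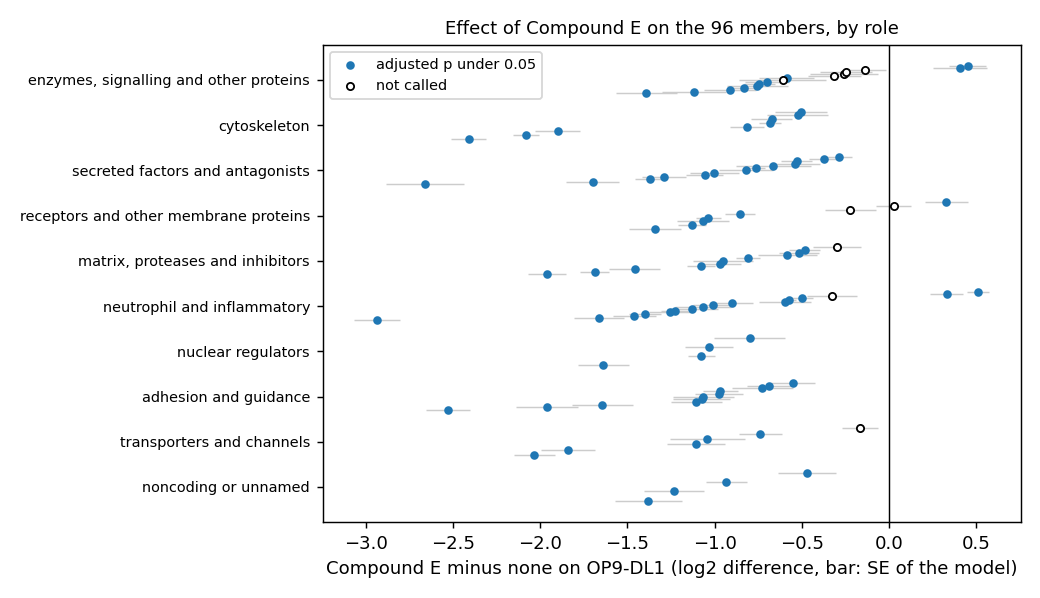
Compound E minus OP9-DL1 on the log2 scale for each of the 96 members (points), grouped by role, with the standard error of the model as a bar. Filled points passed the test (limma adjusted p under 0.05) and open points did not. Most members lie left of 0, and 5 filled points lie right of it. All members of the adhesion, secreted factor, cytoskeleton, nuclear regulator and noncoding roles are filled and left of 0. Of all 96 members 81 were called lower, and of all genes 21.6%.

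The 8 cytoskeletal members stayed closest to OP9-GFP with Compound E, with a median difference of 0.58 and none at 1. Tubb1, the beta tubulin of platelets, read 7.62, 7.61 and 7.58 on OP9-GFP, 10.35, 10.26 and 10.30 on OP9-DL1, and 8.22, 8.08 and 8.37 with Compound E. The 3 groups did not overlap, and Compound E lowered it 4.23-fold (limma adjusted p = 1.4e-12). Among 12 measured megakaryocyte and platelet genes it was the only one called above OP9-GFP with Compound E: all 12 were higher on OP9-DL1, and with the inhibitor 9 were lower than on OP9-GFP, with a list median of -0.49. Tubb2b, a neuronal beta tubulin close in sequence to other tubulins, fell 5.32-fold, and the muscle adaptor Sorbs2 fell by 1.90. The non-muscle myosin Myh10 and the collapsin response protein Dpysl3 fell by 0.81 and 0.68.

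The nuclear regulators were 4. Tox, an HMG-box factor of T cell development, read 4.12, 3.79 and 4.42 on OP9-GFP, 7.27, 7.18 and 7.12 on OP9-DL1, and 5.55, 5.55 and 5.56 with Compound E. The groups did not overlap, and Compound E was 2.72-fold above OP9-GFP. Ebf3, a factor of the EBF family, averaged 8.09, 10.17 and 9.10 in that order. Tcim and the homeobox factor Pknox2 stayed 0.96 and 0.53 above OP9-GFP. Among the 4 noncoding or unnamed genes, Rian, a maternally expressed noncoding RNA, read 5.41, 5.40 and 5.37 on OP9-GFP, 7.48, 7.53 and 7.15 on OP9-DL1, and 6.37, 6.51 and 6.48 with Compound E, with no overlap.

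The remaining 15 members are enzymes, signalling proteins and others, and this role holds 5 of the 10 members not called with Compound E: Alpl, Ipcef1, Irs2, Mras and Rgs20. Alpl, the alkaline phosphatase of bone, read 5.34, 5.27 and 4.74 on OP9-GFP, 6.74, 6.49 and 6.63 on OP9-DL1, and 6.40, 6.40 and 6.32 with Compound E. Its difference of -0.25 (SE 0.15) missed the threshold with a limma adjusted p of 0.192. Rgs20 was uneven between arrays, at 4.98, 5.40 and 6.19 on OP9-DL1 and 5.14, 5.15 and 4.44 with Compound E, and these overlapped. The metallothionein Mt2, the lipid phosphatase Plpp3 and the amine oxidase Maob fell by 0.74, 0.83 and 0.70. The other members not called were Il1r2, Abca13, Treml4, Pth1r and Srpx2, and a missed threshold does not show that the values were equal.

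Stromal markers were measured beside the members, since Pdgfra, Fstl1, Cdh11 and the matrix genes are expressed by stroma. Of 23 measured genes of a stromal and OP9 list, 18 were higher on OP9-DL1 than on OP9-GFP (median 0.75) and 20 fell with Compound E (median -0.69). With Compound E against OP9-GFP 3 were higher, Col3a1 and the members Fstl1 and Pdgfra, 7 were lower, and the median was -0.01. Centring the arrays made that 6 higher and 6 lower, with a median of 0.09. Fstl1, a secreted follistatin-like protein, read 9.52, 9.45 and 9.52 on OP9-GFP, 10.80, 10.82 and 10.89 on OP9-DL1, and 10.08, 10.09 and 10.05 with Compound E, with no overlap.

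Summed on the linear scale, the 21 stromal genes that are not members read 20918 to 21338 on the OP9-GFP arrays, 33611 to 34240 on OP9-DL1 and 19423 to 19826 with Compound E. The 96 members read 11275 to 11585, 42692 to 43790 and 22305 to 23049. The members' sums follow from the rule and members were taken out of the stromal list, so the contrast between them is no test, and the part of feeder RNA in the members' values was not tested. The stromal genes Lum and Dcn were at background in all groups. Smooth muscle and pericyte genes gave 0 higher and 6 lower of 12 with Compound E against OP9-GFP. Adipocyte and preadipocyte genes gave 0 higher and 3 lower of 10, and endothelial genes 1 higher and 6 lower of 12. Some lists share genes, so their counts are not separate. Tagln and Acta2 are in the stromal and smooth muscle lists. Among the endothelial genes, Vwf is also in the megakaryocyte list and Tek in the stem cell list. Of 9 osteogenic and chondrogenic genes, 2 were higher with Compound E than on OP9-GFP, 0 lower and 7 not called. The 2 higher were Alpl, a member by the rule, and Sox9, by 0.28 (limma adjusted p = 0.0488). The list median of 0.16 was the value of Phex, which was at background in both groups compared.

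**Figure D4:**
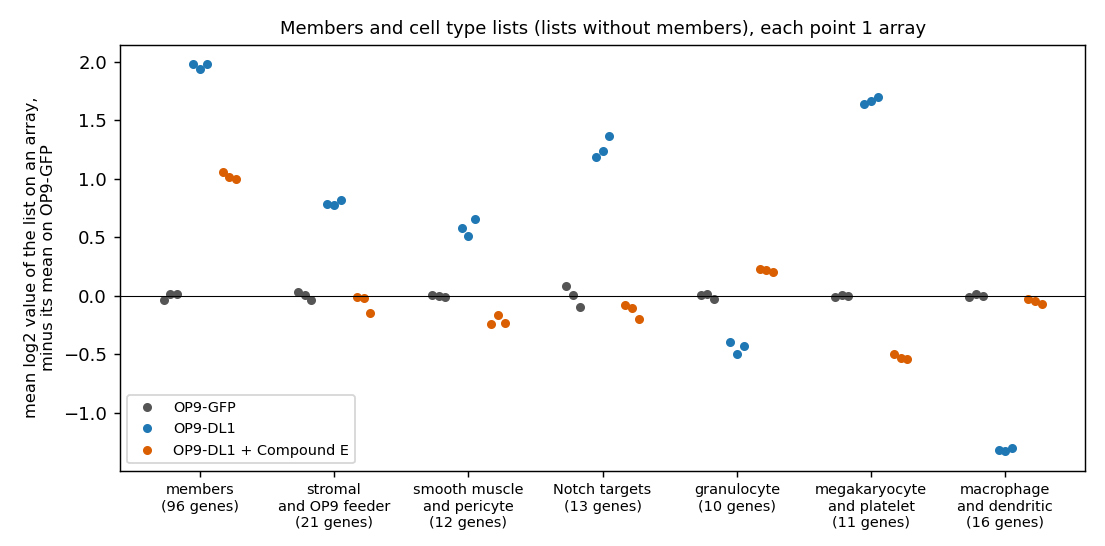
Mean log2 value of the 96 members and of 6 marker lists (members removed from the lists) on each array, minus the mean over the 3 OP9-GFP arrays. The members' place above OP9-GFP follows from how they were chosen. With Compound E the stromal, smooth muscle, Notch target and megakaryocyte lists lay below the OP9-GFP mean on every array of these values. In the stromal and Notch target lists the Compound E arrays overlapped the OP9-GFP arrays.

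The arrays offer a further reading of 55 members through 98 other probe sets, which share the RNA with the ones that chose the members. Over all probe sets, 12.1% were called higher in OP9-DL1 minus OP9-GFP and 8.24% in Compound E minus OP9-GFP, and 20% lower in Compound E minus OP9-DL1. Of the 98, 52 were higher in the first comparison and none lower, 27 were higher in the second and 1 lower, and 36 were lower in the third. The 27 belong to 17 genes. At background in every group were 36 of the 98, and for the other 62 the counts were 48, 27 and 33.

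Another probe set was above background in a group for 39 members. For 17 of these, at least 1 such probe set was called higher with Compound E than on OP9-GFP. Plxdc2 and Cdh11 repeated across probe sets. The other 2 of Plxdc2 were 2.80 and 3.29 above OP9-GFP on OP9-DL1 and 2.25 and 2.53 above it with Compound E, and the other of Cdh11 was 3.25 and 1.95 above. For Cp 6 of 7 others were higher than on OP9-GFP in both comparisons. The other probe set of Slc26a7 was dimmer, averaging 3.69, 4.84 and 4.14, and its Compound E minus OP9-GFP difference of 0.45 missed the threshold (limma adjusted p = 0.058). That of Ptchd4 was at background in every group, and Chodl, Pla2g7, Il1r2, Il1b, Esm1 and Ms4a4d have only 1. No other probe set of Pdgfra, Jam2, Sema3a, Gpm6b, Tnfrsf11b or Ptx3 was called higher with Compound E than on OP9-GFP. Those of Pdgfra differed by 0.26 and 0.23, and those of Jam2 above background in a group by 0.19 or less. A probe set of Masp1, a complement-activating protease, was lower with Compound E than on OP9-GFP, by -0.61, whereas the one that chose it was 0.64 higher.

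**Figure D5:**
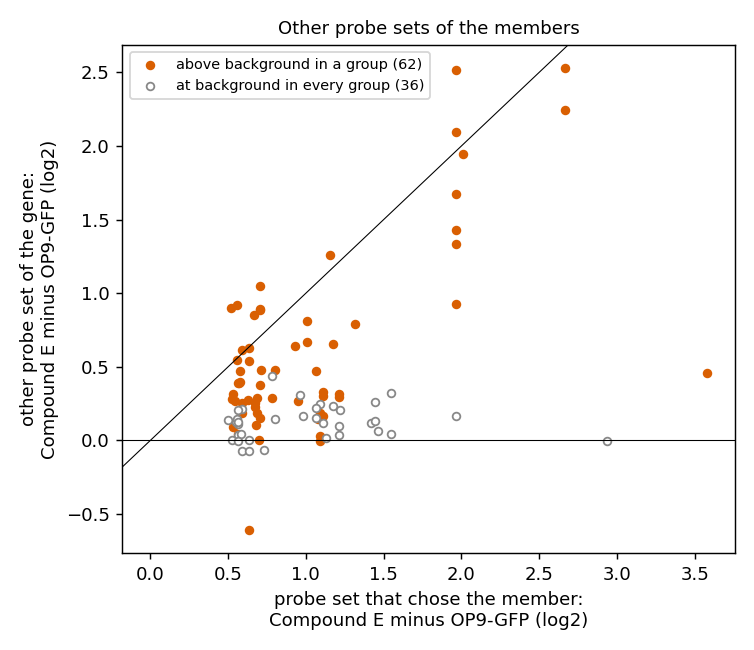
Compound E minus OP9-GFP (log2) of the 98 other probe sets of 55 members, against the same difference of the probe set that chose the member; the solid line marks equal values. Filled points are above background in at least 1 group and open points are not; most points lie below the line, and 1 filled point, of Masp1, is clearly below 0.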

How the data were processed

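The deposited values are on the log2 scale, with a value for every probe set on each of 9 arrays. The submitters' processing notes name GCRMA 2.4.1 and MAS5 but not which of them made these values. Of 45101 probe sets 34945 had 1 symbol, 932 several and 9160 none, and 64 were controls; 34741 symbols were updated through the Entrez ID (GRCm38.p6, names only). Group means were compared with limma 3.58.1 in R 4.3.3 (eBayes with trend, all 9 arrays, no covariate, no filter), with Benjamini-Hochberg adjustment over 18193 genes and a threshold of 0.05. The procedure was tested on simulated data. An SE is from the model. Arrays have no read depth, and 3 per group limit the precision.

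The members, roles and marker lists were chosen with earlier results of these data known. Named genes were the 3 markers, the 12 members with the largest Compound E minus OP9-GFP and the 8 with the largest OP9-DL1 minus OP9-GFP difference, the 4 highest and 4 lowest with the inhibitor, the 3 on each side of the lower threshold, and members of marker lists. For 14 members (14.6%, against 21.9% of all genes) 2 or 3 arrays of a group held equal values, which lowers the spread behind their p-values. No pair of arrays was identical. Alternatives were other normalizations, log2(value + 32), the mean of probe sets, other thresholds and filters, and each array left out; filters that kept genes above background or without equal values were added after the data were seen.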

Additional observations from a re-analysis of the deposited data

How the results depend on the processing

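The number of members depended on the rule and the scale more than on any array. It was 96, and 94 to 102 with each array left out. It was 47 with log2(value + 32), 59 with each gene's probe sets averaged, 52 among genes above the median level, 37 with both thresholds at 1, and 60 with an OP9-DL1 mean above 7. Among genes above the median level the members called higher than OP9-GFP were 52 in both comparisons, and with Compound E 45 were lower and 3 higher than on OP9-DL1. The 5 members higher with Compound E were 3 with the mean of probe sets, where Cp reversed to -0.0087, and 3 to 5 with each array left out. The 27 other probe sets higher with Compound E than on OP9-GFP were 42 with arrays centred on their medians. Same-numbered replicates deviated from their group means with correlations of -0.11 to 0.12, and differently numbered ones with -0.14 to 0.09. These show no clear pairing by number, but with 3 arrays a group they cannot exclude it. With the replicate block 96 members were higher on OP9-DL1, 93 higher and none lower with Compound E than on OP9-GFP, and 81 lower and 5 higher with Compound E than on OP9-DL1. Over named genes and these alternatives 1534 values kept direction and side of the threshold, 13 lost and 9 gained a call, and 1 reversed.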
